A study of Homo sapiens with 8 samples.

Results

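The transcripts described here are 48 genes that act in S phase and DNA replication, a list that covers origin licensing, the replicative helicase, DNA polymerases, nucleotide supply, chromatin assembly on new DNA, fork repair and the regulators of S phase entry. The list was given by gene name and not by level, but it was chosen with earlier results of these data known. Of the 48 genes, 47 had a probe among the 22184 probes of the array, and NASP, a histone chaperone, had none. The probe of BRIP1, a repair helicase, was detected above background on 0 of the 8 arrays, so 46 members were tested among 11214 genes tested in all, and 45 of them were detected on all 8 arrays. E2F8, a repressor of the E2F family, was detected on 5 arrays.

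The samples were cells of the human colon carcinoma line Caco2 and of the human melanoma line WM115, sorted with the AC133 antibody, which binds CD133, the product of PROM1. AC133 high cells were the brightest 10% of a culture, AC133 negative cells were unstained, and dead cells and doublets had been gated out. The 4 groups were therefore Caco2 AC133 high, Caco2 AC133 negative, WM115 AC133 high and WM115 AC133 negative, each with 2 separate sorts and 1 array per sort. Both Caco2 groups carried a lentiviral reporter, green fluorescent protein under the mouse Melk promoter, and came from 2 isolated clones that the labels do not assign to a sort, whereas no reporter is named for WM115. By its title, the study asked how the AC133 epitope varies with the cell cycle, which is the question the comparison of high and negative cells addresses here. The effects of tissue of origin, reporter, clone and culture medium cannot be told apart in the comparison of the lines.

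Before S phase, the origin recognition complex, CDC6 and CDT1 load the MCM2 to MCM7 ring onto DNA, and geminin (GMNN) blocks CDT1 once replication begins. Cyclin E with CDK2, and E2F transcription factors, then switch on the synthesis of deoxynucleotides, polymerases and histones, and CDC45 with the GINS complex turns the loaded ring into a moving helicase. Transcripts of this programme are most abundant around the start of S phase in dividing cells, so their level in a bulk sample depends on how many cells are in that stage as well as on how much each cell holds. On these arrays fewer cells in S phase and less RNA per cell cannot be told apart.

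Between 53.7% and 59.2% of probes were detected per array. PROM1 had normalized log2 signals of 10.95 and 11.12 in the Caco2 high cells against 6.65 and 7.06 in the negative cells, and of 9.60 and 9.54 against 5.72 and 6.22 in WM115, so the sorted groups did not overlap in either line. Of 9 colon epithelial markers, all 9 were detected on every Caco2 array and 1, KRT18, on every WM115 array. Of 7 melanocyte markers with a probe, 6 were detected on every WM115 array and 1, PMEL, on every Caco2 array. Of 7 markers of blood, endothelial and fibroblast cells, CD3E and CDH5 were detected on no array, CD14 on all Caco2 arrays, DCN on all WM115 arrays and LUM on all 8.

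The lines differed in many members, and in both directions. With both AC133 states of a line pooled, 27 of the 46 members passed an adjusted p of 0.05 in limma, 20 higher in Caco2 and 7 higher in WM115. The 20 include E2F8, which entered the test through the Caco2 groups alone. Among all genes tested 60.3% passed, 30.4% higher in Caco2 and 29.9% higher in WM115, so the share of members called was near that of all genes. The median difference of the members, Caco2 minus WM115, was 0.22 on the log2 scale, against 0.02 over all genes. The 4 arrays of Caco2 lay wholly above those of WM115 for 19 members and wholly below for 7, where 28.7% and 28.4% of all genes did so. The p-values measure only the spread between these sorted samples.

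**Figure D1:**
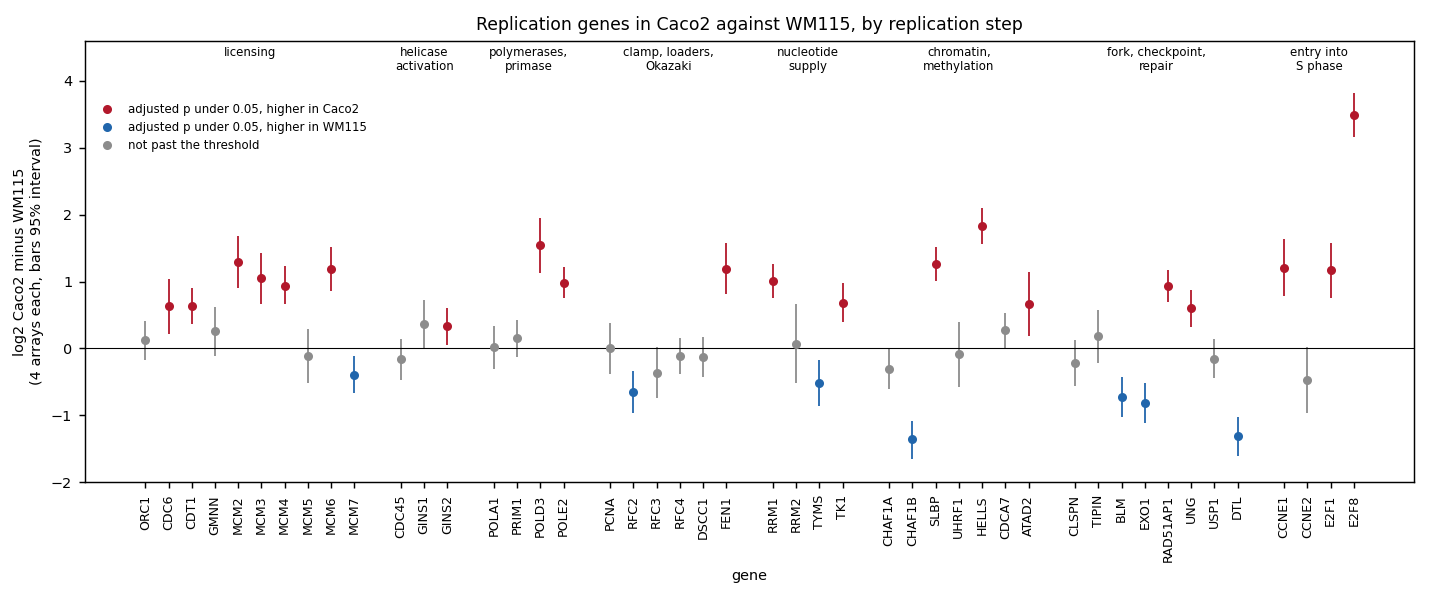
The vertical axis gives the log2 difference, Caco2 minus WM115, of each of the 46 tested members (4 arrays per line), and the horizontal axis orders the genes by replication step. Points are the fitted differences and bars the 95% intervals. Red and blue mark an adjusted p under 0.05, and E2F8 at 3.49 and CHAF1B at -1.36 are the ends of the range.

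Licensing factors were mostly higher in Caco2. Of the 10 members of this step, 6 passed the test as higher in Caco2 (CDC6, CDT1, MCM2, MCM3, MCM4 and MCM6), and MCM7 as higher in WM115. Of all genes tested, 30.4% passed as higher in Caco2 and 29.9% as higher in WM115. The 6 subunits of the MCM ring did not all differ in the same direction. MCM2 had normalized log2 signals of 9.43 and 9.13 in the AC133 high and 9.82 and 9.76 in the AC133 negative cells of Caco2, against 7.96, 8.47, 8.52 and 8.01 in the same order in WM115. Every Caco2 array was above every WM115 array, by 2.45-fold on average (log2 difference 1.29, SE 0.17, limma adjusted p = 0.0002). MCM6 gave 7.55 and 7.55 in the high and 7.40 and 6.93 in the negative cells of Caco2, against 6.14, 5.80, 6.28 and 6.45 in WM115. Its arrays did not overlap between lines either, and the 2.27-fold difference had an adjusted p of 1.3e-04 in limma.

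MCM3 gave 9.99, 9.64, 10.10 and 9.91 in Caco2, high cells first, against 8.34, 8.99, 9.16 and 8.96 in WM115, a 2.07-fold difference (limma adjusted p = 7.3e-04). MCM4 averaged 10.42 ± 0.06 (SD, n = 4) in Caco2 and 9.48 ± 0.25 in WM115, a 1.92-fold difference with an adjusted p of 2.3e-04 in limma. Both were higher on every Caco2 array. MCM5 averaged 8.69 ± 0.11 in Caco2 and 8.80 ± 0.43 in WM115, and its difference of -0.11 had a 95% interval from -0.51 to 0.29. MCM7 gave 11.78, 11.56, 11.80 and 11.67 in Caco2 against 11.90, 12.16, 12.10 and 12.25 in WM115, lower on every Caco2 array and 1.32-fold lower on average (limma adjusted p = 0.019). Under 5 of 16 alternative settings MCM7 did not pass, while its direction was kept, and the other MCM7 probes gave -0.64 and -0.45 without passing the test.

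**Figure D2:**
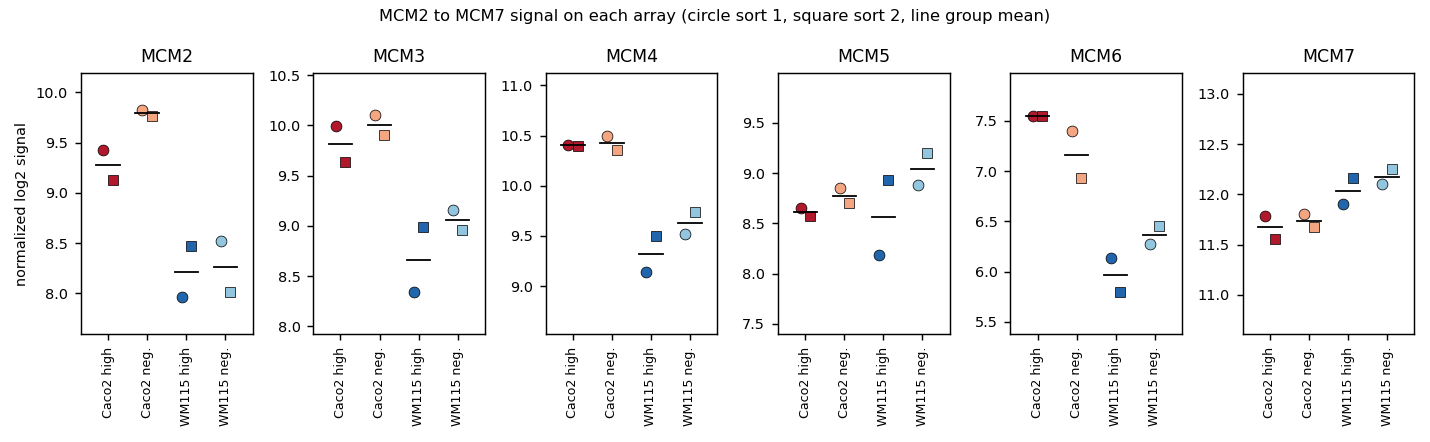
Each panel gives the normalized log2 signal of 1 MCM subunit on the 8 arrays, by line and AC133 state; circles are sort 1, squares sort 2 and lines the group means. All panels span the same number of log2 units. MCM2, MCM3, MCM4 and MCM6 are higher on every Caco2 array, MCM7 is lower on every Caco2 array, and the MCM5 arrays overlap.

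Among the loaders of the ring, CDT1 averaged 8.80 ± 0.18 in Caco2 and 8.18 ± 0.08 in WM115 (1.55-fold, limma adjusted p = 0.002). CDC6 averaged 5.87 ± 0.21 and 5.24 ± 0.32 (1.55-fold, adjusted p = 0.016), and 5 of 16 alternatives did not pass. ORC1, the largest origin recognition subunit, and GMNN, the inhibitor of CDT1, differed by 0.12 and 0.26 without passing the test.

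The promoters of MCM2, MCM3, MCM6 and MCM7 are shown because these subunits form the same ring yet split between the lines, together with those of HELLS and DTL, which differed strongly in opposite directions (below). Those of MCM4 and MCM5 are not shown. Each window holds 300 bases around the RefSeq start of the gene (GRCh38.p14), most of them upstream of it. Capitals mark matches to an E2F motif, TTT followed by 2 bases that are each C or G and then CGC, on either strand, with overlapping matches merged.
MCM2: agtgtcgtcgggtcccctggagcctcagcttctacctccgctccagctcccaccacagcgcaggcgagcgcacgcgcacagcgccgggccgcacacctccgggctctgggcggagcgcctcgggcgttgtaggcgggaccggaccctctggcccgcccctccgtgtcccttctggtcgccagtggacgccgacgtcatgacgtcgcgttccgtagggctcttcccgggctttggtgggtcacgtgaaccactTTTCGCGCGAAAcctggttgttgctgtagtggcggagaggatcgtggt
MCM3: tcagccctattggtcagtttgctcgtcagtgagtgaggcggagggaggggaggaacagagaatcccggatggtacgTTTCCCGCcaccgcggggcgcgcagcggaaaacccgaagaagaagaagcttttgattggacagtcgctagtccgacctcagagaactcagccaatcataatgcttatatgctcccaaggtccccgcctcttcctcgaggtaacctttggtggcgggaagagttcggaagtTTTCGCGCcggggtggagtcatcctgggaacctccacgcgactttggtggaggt
MCM6: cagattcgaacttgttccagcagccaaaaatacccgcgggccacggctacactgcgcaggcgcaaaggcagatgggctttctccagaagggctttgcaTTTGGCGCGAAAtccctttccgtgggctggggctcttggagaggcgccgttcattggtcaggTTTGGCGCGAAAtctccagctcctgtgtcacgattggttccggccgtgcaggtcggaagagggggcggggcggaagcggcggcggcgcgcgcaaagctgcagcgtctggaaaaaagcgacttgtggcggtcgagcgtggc
MCM7: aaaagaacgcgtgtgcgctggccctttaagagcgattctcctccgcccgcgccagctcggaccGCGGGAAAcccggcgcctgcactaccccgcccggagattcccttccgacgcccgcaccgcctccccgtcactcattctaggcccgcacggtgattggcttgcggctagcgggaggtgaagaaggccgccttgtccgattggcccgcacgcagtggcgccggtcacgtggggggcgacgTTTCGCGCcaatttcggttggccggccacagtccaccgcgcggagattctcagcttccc
HELLS: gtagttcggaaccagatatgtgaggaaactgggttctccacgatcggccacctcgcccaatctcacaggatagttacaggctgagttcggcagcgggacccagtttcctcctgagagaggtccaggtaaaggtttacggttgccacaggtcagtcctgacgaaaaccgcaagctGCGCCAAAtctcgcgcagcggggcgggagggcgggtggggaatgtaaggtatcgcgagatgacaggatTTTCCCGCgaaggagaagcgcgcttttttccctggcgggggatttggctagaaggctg
DTL: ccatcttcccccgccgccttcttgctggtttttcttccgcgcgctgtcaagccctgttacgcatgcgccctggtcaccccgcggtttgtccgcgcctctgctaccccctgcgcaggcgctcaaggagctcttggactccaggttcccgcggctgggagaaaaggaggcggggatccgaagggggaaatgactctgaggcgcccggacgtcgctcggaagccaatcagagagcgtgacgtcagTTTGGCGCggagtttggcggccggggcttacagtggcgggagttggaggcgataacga
The MCM2 window lies at chr3:127598161-127598460 on the plus strand. The MCM3 window lies at chr6:52284693-52284992 on the minus strand. The MCM6 window lies at chr2:135876394-135876693 on the minus strand. The MCM7 window lies at chr7:100101348-100101647 on the minus strand. The HELLS window lies at chr10:94545538-94545837 on the plus strand. The DTL window lies at chr1:212035498-212035797 on the plus strand. The first MCM2 match began at base 3 after the start and overlapped its reverse-strand match, and MCM6 held 2 such overlapping pairs, beginning at positions -152 and -90 relative to the start. MCM7, which was higher in WM115, held matches as MCM2, MCM3 and MCM6 did, and both HELLS and DTL held at least 1. The windows shown do not stand for all members that differed. CHAF1B, the member most strongly higher in WM115 (below), held 0 matches, as did SLBP and FEN1, both higher in Caco2. Over the 41 members in the promoter table, 20 windows (48.8%) held the motif, against 703 of 15843 protein-coding genes (4.44%). The CCAAT box was found in 63.4% of the members' windows and 36.4% of all, and TTTGAA, the core of the CHR element of genes of late cell cycle stages, in 4.88% and 12.1%, each on either strand. A match describes letters in the window and not binding.

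Helicase activation and the polymerases followed with fewer calls. GINS2, a subunit of the GINS complex, was 1.26-fold higher in Caco2 (10.13 ± 0.06 against 9.80 ± 0.18, n = 4 each, limma adjusted p = 0.044), a call that 8 of 16 alternatives did not uphold, leaving out any Caco2 array among them. GINS1, another subunit, and CDC45 differed by 0.37 and -0.16 without passing. POLD3, an accessory subunit of polymerase delta, gave 7.82, 7.25, 8.52 and 8.08 in Caco2, high cells first, against 6.21, 6.40, 6.66 and 6.23 in WM115. All Caco2 arrays were above all WM115 arrays, by 2.91-fold on average (limma adjusted p = 1.1e-04). POLE2, an accessory subunit of polymerase epsilon, averaged 9.25 ± 0.06 and 8.26 ± 0.07, a 1.97-fold difference (adjusted p = 5.3e-05). POLA1, the catalytic subunit of polymerase alpha, and PRIM1, the primase that works with it, differed by 0.02 (95% interval -0.30 to 0.34) and 0.15 (-0.13 to 0.43).

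At the sliding clamp and its loaders, 2 of 6 members passed, 1 in each direction, where 60.3% of all genes passed. PCNA, the clamp that holds polymerases on DNA, averaged 11.64 ± 0.16 in Caco2 and 11.64 ± 0.33 in WM115, with a 95% interval of the difference from -0.38 to 0.38. A dimmer PCNA probe gave 0.34 with an adjusted p of 0.049 in limma, and another gave 0.11. FEN1, the nuclease that trims Okazaki fragments, gave 9.80, 9.37, 9.55 and 9.79 in Caco2 against 8.16, 8.74, 8.34 and 8.49 in WM115. It was higher on every Caco2 array, by 2.29-fold (limma adjusted p = 3.2e-04).

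RFC2, a clamp loader subunit, was 1.57-fold lower in Caco2 (8.03 ± 0.14 against 8.68 ± 0.21, limma adjusted p = 0.003), while its dimmer probe gave 0.20 without passing and the mean over its probes, -0.23, did not pass. RFC3, of the same complex, differed between probes in direction: the brightest gave -0.36 without passing, another -0.43 (adjusted p = 0.008) and the dimmest 0.71 (adjusted p = 0.001). Its direction is therefore unsettled. RFC4 and DSCC1, a subunit of an alternative loader, differed by -0.11 and -0.13.

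Nucleotide supply was split as well. RRM1, the large subunit of ribonucleotide reductase, gave 11.49, 11.45, 11.31 and 11.47 in Caco2, high cells first, against 10.33, 10.53, 10.53 and 10.31 in WM115. The lines did not overlap, and Caco2 was 2.01-fold higher (limma adjusted p = 9e-05). RRM2, the small subunit, averaged 9.16 ± 0.20 and 9.09 ± 0.54, with an interval of the difference from -0.52 to 0.67. TK1, the thymidine kinase of the salvage pathway, was 1.61-fold higher in Caco2 (9.57 ± 0.07 against 8.89 ± 0.21, adjusted p = 0.002). TYMS, the thymidylate synthase of the de novo pathway, was 1.43-fold lower in Caco2 (10.66 ± 0.15 against 11.17 ± 0.26, adjusted p = 0.018), and 2 of 16 alternatives did not pass, one of them without the Caco2 high array of sort 2. Among the replication genes outside the list, DUT, which makes the substrate of TYMS by removing dUTP, was also lower in Caco2, by 2.75-fold (7.80 ± 0.12 against 9.26 ± 0.11, adjusted p = 1.1e-05).

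Chromatin genes held the strongest difference after E2F8. HELLS, a remodelling helicase needed for DNA methylation, gave 8.14, 8.14, 8.05 and 7.80 in Caco2, high cells first, against 6.13, 6.38, 6.22 and 6.10 in WM115. The lines were far apart and each was tight, with a 3.55-fold difference (limma adjusted p = 2.4e-06). SLBP, which binds the stem-loop of replication-dependent histone messages, averaged 8.93 ± 0.09 and 7.66 ± 0.10, and was 2.40-fold higher in Caco2 (adjusted p = 1.7e-05). CHAF1B, a subunit of the chromatin assembly factor CAF-1, went the other way: 7.20, 7.62, 7.68 and 7.63 in Caco2 against 8.82, 8.88, 9.01 and 8.88 in WM115. It was lower on every Caco2 array, by 2.57-fold (adjusted p = 2.4e-05).

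CHAF1A, the large subunit of CAF-1, differed by -0.30 and did not pass (adjusted p = 0.080 in limma). ATAD2, a bromodomain ATPase, was 1.59-fold higher in Caco2 (adjusted p = 0.023), a call that 6 of 16 alternatives did not uphold. UHRF1, which recruits the maintenance DNA methyltransferase, and CDCA7, a partner of HELLS, gave -0.09 and 0.27 without passing.

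Of 8 fork and repair genes, 2 passed as higher in Caco2 and 3 as higher in WM115, where 30.4% and 29.9% of all genes did so. DTL, the substrate receptor of the ubiquitin ligase that destroys CDT1 in S phase, gave 8.29, 8.49, 8.93 and 8.81 in Caco2, high cells first, against 9.72, 9.96, 9.91 and 10.18 in WM115. It was lower on every Caco2 array, by 2.49-fold (limma adjusted p = 2.7e-05). The CDT1 transcript was higher in Caco2 (above), but the arrays do not measure CDT1 protein, and any link was not tested. EXO1, a repair nuclease, and BLM, the helicase lost in Bloom syndrome, were 1.75-fold and 1.66-fold lower in Caco2 (adjusted p = 8.1e-04 and 0.001). RAD51AP1, a DNA repair factor, was 1.92-fold higher in Caco2 (adjusted p = 8.7e-05). UNG, which removes uracil from DNA, was 1.51-fold higher (adjusted p = 0.003), but its other probes gave 0.40 and 0.10 without passing, and the mean over probes, 0.36, did not pass either. CLSPN and TIPIN, which protect stalled forks, and USP1, a deubiquitinase of fork repair, differed by -0.22, 0.18 and -0.15.

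Of the regulators of entry, E2F8 stood at 8.21, 7.96, 8.31 and 7.84 in Caco2, high cells first, and at 4.47, 4.62, 4.52 and 4.74 in WM115. It was detected on all 4 Caco2 arrays and on 1 WM115 array, which was AC133 negative. Among AC133 high cells, where no WM115 array was above background, Caco2 was at least 10.2-fold higher (means 8.08 and 4.55). E2F8 entered the test through the Caco2 groups alone, so its call is a description, and the fitted difference of 3.49 was 2.39 with a background offset of 50. E2F7, the closest relative of E2F8 and outside the list, went the other way and was 4.89-fold higher in WM115 (9.28 ± 0.27 against 6.99 ± 0.29, adjusted p = 1.1e-05). The 4 Caco2 arrays of E2F7 read 6.74, 6.99, 7.40 and 6.82, and those of WM115 9.60, 9.05, 9.05 and 9.41, without overlap.

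E2F1, an activator of S phase genes, was 2.25-fold higher in Caco2 (7.99 ± 0.29 against 6.82 ± 0.24, limma adjusted p = 5.3e-04). CCNE1, the cyclin E that starts S phase with CDK2, was 2.30-fold higher in Caco2 (7.61 ± 0.30 against 6.41 ± 0.40, adjusted p = 5.9e-04), whereas CCNE2, the other cyclin E, gave -0.47 without passing. CDK2, the kinase partner of both and outside the list, was 4.62-fold higher in WM115 (11.75 ± 0.40 against 9.54 ± 0.12, adjusted p = 7e-06). In RefSeq its neighbour on the chromosome is PMEL, a pigment cell gene, which averaged 13.53 in WM115 and 6.22 in Caco2; any part of PMEL in the CDK2 difference was not tested.

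Of 69 further replication genes, 63 were tested, and 33 passed in limma, 18 higher in Caco2 and 15 higher in WM115. Of all genes tested 60.3% passed, 30.4% higher in Caco2 and 29.9% higher in WM115, so these counts do not exceed the general share. By the naming rule these included CHEK1, the checkpoint kinase, at 10.11 ± 0.04 in Caco2 against 8.01 ± 0.20 in WM115 (4.28-fold). They also included MCM10, which helps to start the helicase, at 8.95 ± 0.15 against 7.73 ± 0.25 (2.34-fold). Some markers of other cycle states also differed between the lines, as most genes tested did. CDKN1A, the p21 inhibitor of cyclin-dependent kinases, was 13.3-fold higher in WM115 (10.14 ± 0.43 against 6.40 ± 0.23), CDKN2B 4.15-fold higher in WM115, and CDKN1B, the p27 inhibitor, 3.24-fold higher in Caco2. Of 8 G2 and mitosis markers, 4 passed, all higher in Caco2, with a median difference of 0.38 over the 8. The part of these in the differences of the members was not tested.

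By AC133 state, the difference between the lines had the same sign in high and in negative cells for 36 of 46 members, and for 9786 of 11214 genes. Of the 27 called members, 20 kept the call under each of the 16 alternative fits checked gene by gene (15 for E2F8). E2F8 is counted in both numbers, but it entered the test through the Caco2 groups alone. The filter for probes detected on all arrays leaves E2F8 out, so its kept call is no support. The alternative fits did not include other tests or the comparisons within single AC133 states. Between the AC133 high cells of the lines 23 members passed (47.4% of all genes did), and between the negative cells 22 (47.3% of all genes).

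Between AC133 high and negative cells, no member passed an adjusted p of 0.05 in limma in either line. In Caco2 0 of 46 members were called, where 0.847% of all genes were, and 3 had an unadjusted p under 0.05, all lower in the high cells. In WM115 0 of 46 were called, where 0.0178% of all genes were, and 1 had an unadjusted p under 0.05. Among all 11214 genes tested, 886 in Caco2 and 564 in WM115 had an unadjusted p under 0.05, so the members did not exceed the general share. The 95% intervals of the members lay between -1.35 and 0.84 in Caco2 and between -1.34 and 0.83 in WM115, and the median SE of a difference was 0.19.

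The direction, without any call, leaned to lower values in the high cells. In each line 30 of 46 members were below 0, with a median difference of -0.11 in Caco2 and -0.10 in WM115, against 0.00 and 0.01 over all genes. The WM115 counts include E2F8, which was not detected on 3 of its 4 arrays there. In Caco2 the groups did not overlap for 17 members lower and 6 higher in the high cells, where 20% and 19% of all genes did so. In WM115 the numbers were 8 lower and 2 higher, where 13.3% and 15.3% of all genes did so. The Caco2 median was between -0.18 and -0.06 with any 1 array left out; it was -0.18 without sort 1 of the high cells and -0.06 without sort 2 of the high cells.

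The sorts differed in WM115. In Caco2 29 members in sort 1 and 30 in sort 2 were lower in the high cells, with medians of -0.09 and -0.10. In WM115 41 were lower in sort 1, with a median of -0.18, and 22 in sort 2, with a median of 0.01. The array of WM115 high cells of sort 1 was the lowest of its line for 33 of 46 members (71.7%, against 23.4% of all genes) and the highest for 0. Without that array the WM115 median turned to 0.04, without the high array of sort 2 it was -0.26, and without the negative array of sort 2 it was -0.02. On the high array of sort 1, 12990 probes were detected, within the range of the other arrays. Its median bead standard error over the members was 4.44% of the signal, the highest, with 3.66% to 4.34% on the others. Any part of array quality was not tested.

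**Figure D3:**
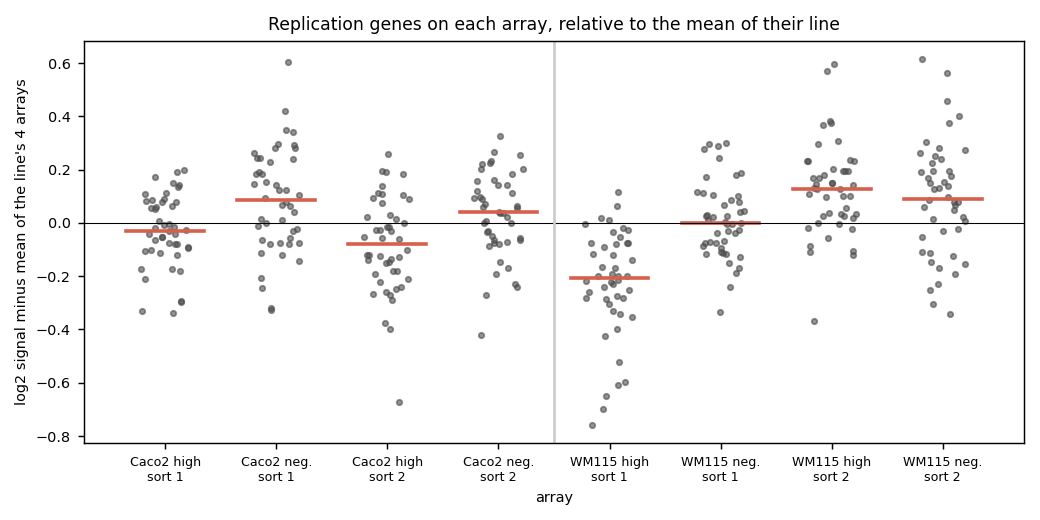
The vertical axis gives the log2 signal of each of the 46 tested members on 1 array minus the mean of the 4 arrays of its line, and the horizontal axis the 8 arrays. Points are genes and red lines medians. The WM115 AC133 high array of sort 1 has a median of -0.21, and the other arrays have medians from -0.08 to 0.13.

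In Caco2 the largest sort gaps were those of FEN1 (high minus negative 0.25 in sort 1 and -0.42 in sort 2), RRM2 (0.19 and -0.33), CDT1 (-0.42 and 0.09), E2F1 (-0.47 and 0.01) and CHAF1B (-0.48 and 0.00). In WM115 they were those of RRM2 (-0.66 and 0.46), MCM2 (-0.56 and 0.47), ATAD2 (-0.31 and 0.60), MCM3 (-0.82 and 0.03) and GINS1 (-0.21 and 0.54). RRM2, the regulated subunit of ribonucleotide reductase, was in both sets.

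**Figure D4:**
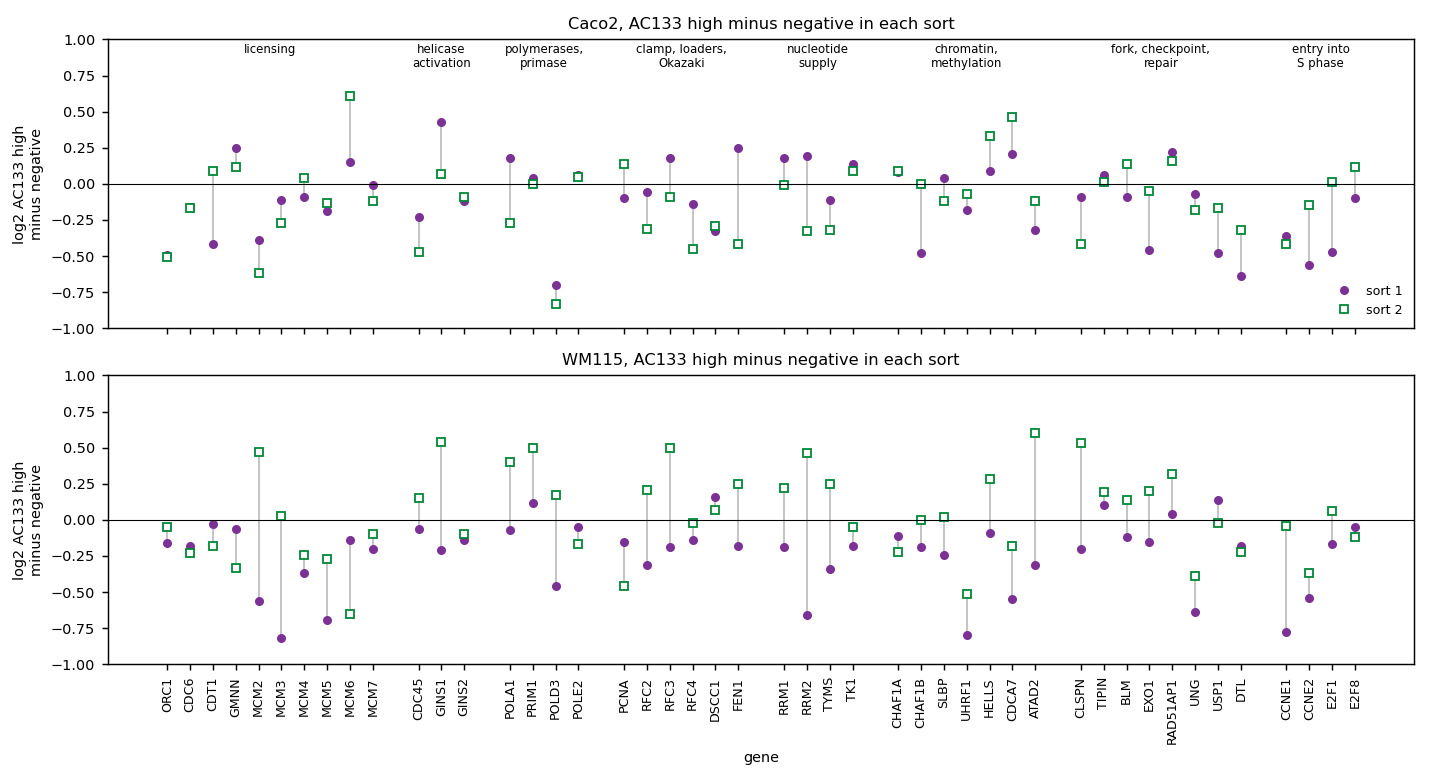
The vertical axis gives the log2 difference, AC133 high minus negative, in sort 1 (filled circles) and sort 2 (open squares) of each member, for Caco2 above and WM115 below; grey lines join the sorts of a gene. In WM115 sort 1 41 of 46 members lie below 0, and in sort 2 22 do.

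Across all 4 sorts, 11 of 46 members (23.9%, against 7.68% of all genes) were lower in the high cells and 2 (4.35%, against 7.86%) were higher. Both shares depend on WM115 sort 1, where 41 of 46 members and 5545 of 11214 genes were lower. The high array of that sort was the lowest of its line for 71.7% of members. The 11 were ORC1, CDC6, MCM5, MCM7, GINS2, RFC4, UHRF1, UNG, DTL, CCNE1 and CCNE2, and the 2 were TIPIN and RAD51AP1. For MCM7 and UNG this holds for the brightest probe only. The other MCM7 probes gave 0.84 and 1.35 in Caco2 sort 1, and 0.56 and 0.90 in WM115 sort 2. The other UNG probes gave 0.58 and 0.24, and 0.28 and 0.02, in the same sorts. Some of the 11 were close to 0 in 1 sort, such as MCM7 (-0.01, Caco2 sort 1) and RFC4 (-0.02, WM115 sort 2).

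By step, all 10 licensing members were below 0 in WM115 (median -0.20) and 8 of 10 in Caco2 (median -0.16), with none called. ORC1 gave 7.65 and 7.57 in the Caco2 high cells against 8.15 and 8.09 in the negative cells. The groups did not overlap, and the difference of -0.50 (SE 0.18) had an unadjusted p of 0.021 and an adjusted p of 0.458 in limma. For MCM2 the difference was -0.51 in Caco2 (9.43 and 9.13 against 9.82 and 9.76, adjusted p = 0.698) and -0.05 in WM115. For MCM6 the differences were 0.38 in Caco2 (adjusted p = 0.775) and -0.40 in WM115 (adjusted p = 1). The values of MCM3, MCM4, MCM5 and MCM7 were -0.19, -0.02, -0.16 and -0.07 in Caco2, against -0.40, -0.30, -0.48 and -0.15 in WM115. The other MCM7 probes gave 0.25 and 0.33 in Caco2, and -0.21 and -0.01 in WM115.

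The polymerase subunit POLD3 had the largest difference of any member in Caco2, 7.82 and 7.25 in the high cells against 8.52 and 8.08 in the negative cells. The groups did not overlap, and the difference of -0.77 (SE 0.25) had an unadjusted p of 0.016 and an adjusted p of 0.419 in limma; in WM115 the difference was -0.14. POLE2 gave 0.06 in Caco2 and -0.11 in WM115, POLA1 -0.05 and 0.17, and PRIM1 0.31 in WM115. CDC45, GINS1 and GINS2 gave -0.35, 0.25 and -0.11 in Caco2, and 0.04, 0.17 and -0.12 in WM115.

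PCNA gave 0.02 in Caco2 and -0.31 in WM115, and in Caco2 RFC2, RFC4 and DSCC1 gave -0.18, -0.30 and -0.31. RFC3 and DSCC1 gave 0.15 and 0.12 in WM115. The nucleotide supply genes gave small mean differences: RRM1, RRM2, TYMS and TK1 gave 0.08, -0.07, -0.21 and 0.12 in Caco2, and 0.01, -0.10, -0.05 and -0.12 in WM115. Their adjusted p in limma was 0.975 at the lowest in Caco2, where their 95% intervals ran from -0.91 to 0.77. These means average sorts that differed in direction. The median of this step was 0.16 in sort 1 and -0.17 in sort 2 of Caco2, and -0.27 and 0.23 in WM115.

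Among chromatin genes, UHRF1 gave 9.21 and 10.07 in the WM115 high cells against 10.01 and 10.58 in the negative cells, and the groups overlapped. Its difference of -0.66 had an unadjusted p of 0.056 in limma. CDCA7 gave 0.33 in Caco2 and -0.36 in WM115, CHAF1B -0.24 in Caco2, HELLS 0.21 in Caco2 and CHAF1A -0.17 in WM115.

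Among fork and repair genes, DTL gave 8.29 and 8.49 in the Caco2 high cells against 8.93 and 8.81 in the negative cells, without overlap, and its difference of -0.48 had an adjusted p of 0.490 in limma; in WM115 it was -0.20. UNG gave 9.69 and 9.97 in the WM115 high cells against 10.33 and 10.36 in the negative cells. These groups did not overlap, and the difference of -0.52 (SE 0.17) had an unadjusted p of 0.014 and an adjusted p of 0.841. The other UNG probes gave -0.08 and -0.19 in WM115. USP1 and EXO1 gave -0.33 and -0.26 in Caco2, and RAD51AP1 0.18 in WM115.

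Of the regulators of S phase entry, CCNE1 and CCNE2 were below 0 in both lines. CCNE1 gave 7.60 and 7.23 in the Caco2 high cells against 7.96 and 7.65 in the negative cells, and 5.81 and 6.59 against 6.60 and 6.63 in WM115. The groups overlapped in neither line, in WM115 by the narrowest margin, and the differences were -0.39 and -0.41. CCNE2 gave -0.35 and -0.46, and E2F1 -0.23 in Caco2. E2F8 was not detected on 3 of 4 WM115 arrays, so its difference there of -0.08 gives no direction.

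In the mean of both lines 0 of 46 members were called (0.107% of all genes were), and 36 were below 0. The 4 members with an unadjusted p under 0.05 were DTL (-0.34), UNG (-0.32), POLD3 (-0.45) and ORC1 (-0.30), followed by CCNE1 (-0.40), with adjusted p in limma from 0.567 to 0.726. Among all 11214 genes, 859 had an unadjusted p under 0.05 in the mean, a share near that of the members. The AC133 difference of Caco2 minus that of WM115 was called for 0 of 46 members (0.0713% of all genes). Of these, 2 had an unadjusted p under 0.05, CDCA7 at 0.70 (adjusted p = 0.627) and MCM6 at 0.78 (adjusted p = 0.709), both positive. The next members by p were POLD3 at -0.62, DSCC1 at -0.43 and UNG at 0.39. Of all 11214 genes, 696 had an unadjusted p under 0.05 for this difference.

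None of the 63 other replication genes was called between AC133 states in limma, while 0 in Caco2, 1 in WM115 and 7 in the mean had an unadjusted p under 0.05. In the mean of both lines, CCNA2, the cyclin of S and G2 phase, gave 0.35, TOP2A, which untangles DNA before mitosis, 0.39, and ORC4, an origin subunit, 0.34. E2F2 gave -0.43 and POLD1, the catalytic subunit of polymerase delta, -0.37, and the lowest adjusted p of these was 0.478. By the same rule, POLD4 (-0.40) and RECQL4 (-0.47) were named in Caco2 and LMNB1 (-0.76) in WM115. POLD4 ran from -0.64 without the negative array of sort 1 to -0.16 without that of sort 2. LMNB1, a lamin of the nuclear envelope, gave 7.07 and 6.83 in the WM115 high cells against 7.12 and 8.31 in the negative cells, so 1 negative array, that of sort 2, stood above the other 3. Its difference was -0.17 without that array and -1.37 without the negative array of sort 1, where it passed (limma adjusted p = 0.033). For the AC133 difference of Caco2 minus that of WM115, CHTF8 (-0.47), DTYMK (-0.48), RPA2 (-0.35), CDK2 (-0.51) and RECQL4 (-0.52) were named. None of the 63 had an unadjusted p under 0.05 in limma for it.

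Averaged over the sorts, markers of G2 and mitosis pointed the other way from the members. All 8 were above 0 in WM115 (median 0.38) and 6 of 8 in Caco2 (median 0.25), and none was called in limma. In WM115 all 8 were above 0 in sort 1 (median 0.58) and 5 in sort 2 (median 0.26). The members' median in WM115 sort 2 was 0.01. In Caco2 6 were above 0 in each sort (medians 0.08 and 0.34). CDC20 (-0.14) and CENPF (-0.03) were below 0 in Caco2. HMMR, a spindle protein, gave 0.63 in WM115 (unadjusted p = 0.0079, adjusted p = 0.699) and 0.39 in Caco2, and TTK, a spindle checkpoint kinase, 0.61 and 0.08. Of the 3 tested markers of cell cycle exit, CDKN1A gave -0.68 in WM115 (unadjusted p = 0.014, adjusted p = 0.831), CDKN2B 0.55 (unadjusted p = 0.038, adjusted p = 1) and CDKN1B 0.13, and in Caco2 they gave -0.11, -0.09 and -0.19, with none called. The part of these markers in the members' values was not tested.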

How the data were processed

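Per the file headers, the deposited file of each array (Illumina HumanRef-8 version 2) holds an intensity per probe with its standard error over beads, the number of beads, and a detection p-value that ranks the probe against negative controls. The headers do not say if background was subtracted. The authors also deposited a joint intensity table, quantile normalized. From the deposited intensities, limma 3.58.1 in R 4.3.3 gave normexp-corrected (offset 16), quantile-normalized log2 values. Probes with a detection p-value under 0.05 on both arrays of at least 1 group were tested (13844 probes). A gene is read by its brightest tested probe. Symbols came from RefSeq by gene number (19695 probes).

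A limma fit of 4 group means to 8 arrays (4 residual and 4.35 prior degrees of freedom) gave two-sided p-values with Benjamini-Hochberg adjustment across the tested probes. With 2 arrays in each group, exact permutation could reach 0.333 at best. The arrays of a sort share its number in the labels: deviations from the group means correlated between high and negative cells at 0.281 in Caco2 and 0.177 in WM115. Over the members the correlations were 0.355 and 0.3. The main fit did not model the sort, so the 4 arrays of a line, from 2 sorts, were taken as independent. Alternatives changed background, offset, scaling, filter, probe choice, arrays, test and replicate block. The members, lists and naming rule were chosen with earlier results of these data known. The rule names every called member, up to 3 members per step with the smallest p, the MCM ring, PCNA, nucleotide supply genes, CCNE1, the 5 largest sort gaps per line, and up to 5 other replication genes per comparison. All arrays share 1 slide. The number of arrays limits the precision.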

Additional observations from a re-analysis of the deposited data

How the results depend on the processing

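With the sort as a replicate block, 0 members were called between AC133 states in either line and 29 between the lines. Of the 29, 9 were higher in WM115, against 7 in the main fit. No count of called genes changed by over 1.5 times with the block. The count between the lines ran from 22 (median scaling, AC133 negative arrays alone) to 29, where 60.3% of all genes passed in the main fit. The methods' t-test at unadjusted p called 2 members in Caco2, and 1 other replication gene in Caco2 and 1 in WM115. After Benjamini-Hochberg it called none of them. In limma, 886 of 11214 genes in Caco2 and 564 in WM115 had an unadjusted p under 0.05. The share of all genes under the t-test is not given here, so its counts are no result about the members. Leaving out 1 array gave 0 to 1 other replication genes in WM115. The PROM1 differences of 4.18 and 3.6 kept their size but lost the call by the methods' t-test after Benjamini-Hochberg (adjusted p = 0.547 and 1), and in WM115 with its 4 arrays alone (3.6, adjusted p = 0.114). The list median in Caco2 was -0.10 with offset 50 and in the authors' table, -0.13 with median scaling, -0.11 over all probes of a gene, and -0.18 to -0.06 with 1 array left out. In WM115 leaving out 1 array gave -0.26 to 0.04, the only turn of sign among the list medians. Between the lines the median was 0.20 without background correction and in the authors' table. It was 0.18 with offset 50, median scaling, no filter, or probes detected on all arrays. It was 0.26 in AC133 high and 0.27 in AC133 negative arrays alone, both settings chosen after seeing the data, and 0.16 to 0.32 with 1 array left out. The causes were not tested. Signal near background limits E2F8, and 2 arrays a group limit every comparison of AC133 states.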
